A study of Rattus norvegicus with 6 samples.

Results

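The genes described here are 10 members of the growth hormone and insulin-like growth factor (IGF) axis: Igf1, Igf1r, Ghr and the binding protein genes Igfbp1 to Igfbp7. They were chosen by symbol from the 31368 rows of a gene count table. All 10 had a row, 0 of them shared their symbol with a second row, and all 10 passed the filter on low counts that left 15371 genes for testing. RNA was sequenced from renal tissue in 6 libraries, 3 labelled CKD (chronic kidney disease) and 3 labelled Sham (the controls). Both groups came from male Sprague-Dawley rats of WT genotype, and the model is placed in rats 8 weeks old. How the disease was induced and the age at sampling are not given in the sources used here. Nothing in the labels ties each library to its own animal, so the p-values reflect only how far these libraries differ, and that spread may be technical.

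Growth hormone from the pituitary acts on its receptor in liver and other tissues, and the receptor signals through the kinase JAK2 and the transcription factor STAT5 to raise transcription of Igf1. IGF1 then acts on the IGF1 receptor, a tyrosine kinase that signals through insulin receptor substrates, PI3-kinase and AKT to promote growth and survival. Most IGF1 outside cells is held by binding proteins, which lengthen its life in blood and limit its access to the receptor, and proteases that cleave them set it free. In the kidney this axis is known for its part in renal growth and filtration, and resistance to growth hormone is a known feature of chronic kidney disease.

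The libraries held 15918035 to 17503644 counts. Mitochondrial genes took 8.83% to 10.8% of the counts in CKD libraries, and 14.4%, 37.9% and 15.3% in Sham 1, 2 and 3. Sham 2 stood apart, so some results are given without it as well. Summed CPM (read counts scaled to the TMM-adjusted library size) of 10 proximal tubule markers ran from 10906 to 15363 in CKD and from 5849 to 21772 in Sham. Albumin (Alb), the defining product of hepatocytes, which are the main source of circulating IGF1, averaged 0.148 CPM in CKD and 0.141 CPM in Sham. The hepatocyte markers Ttr and Serpina1 were listed at 0 in every library. Summed CPM of the 6 hepatocyte markers was 10.7 to 49.2 in CKD and 1.82 to 4.43 in Sham, most of it from the fibrinogen gene Fgb, the 1 marker of that list that could be tested, which was called higher (log2 fold change 3.58 ± 0.69, SE, edgeR adjusted p = 0.0415).

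Igfbp1 was the 1 member that passed the test, and it fell. Transcripts of Igf1, of its receptor and of the growth hormone receptor overlapped between the groups. By edgeR's quasi-likelihood test with Benjamini-Hochberg adjustment over all genes at a threshold of 0.05, 0 members were higher and 1 was lower in CKD. Among all genes tested, 3.82% were called, 2.67% higher and 1.15% lower. CKD libraries lay wholly above Sham for 2 members and wholly below for 1, and the other 7 overlapped. Of all genes tested 31.2% did not overlap (18.8% above, 12.4% below), so 3 of 10 is near the background. The median log2 fold change of the members was 0.23, against -0.01 over all genes tested.

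**Figure D1:**
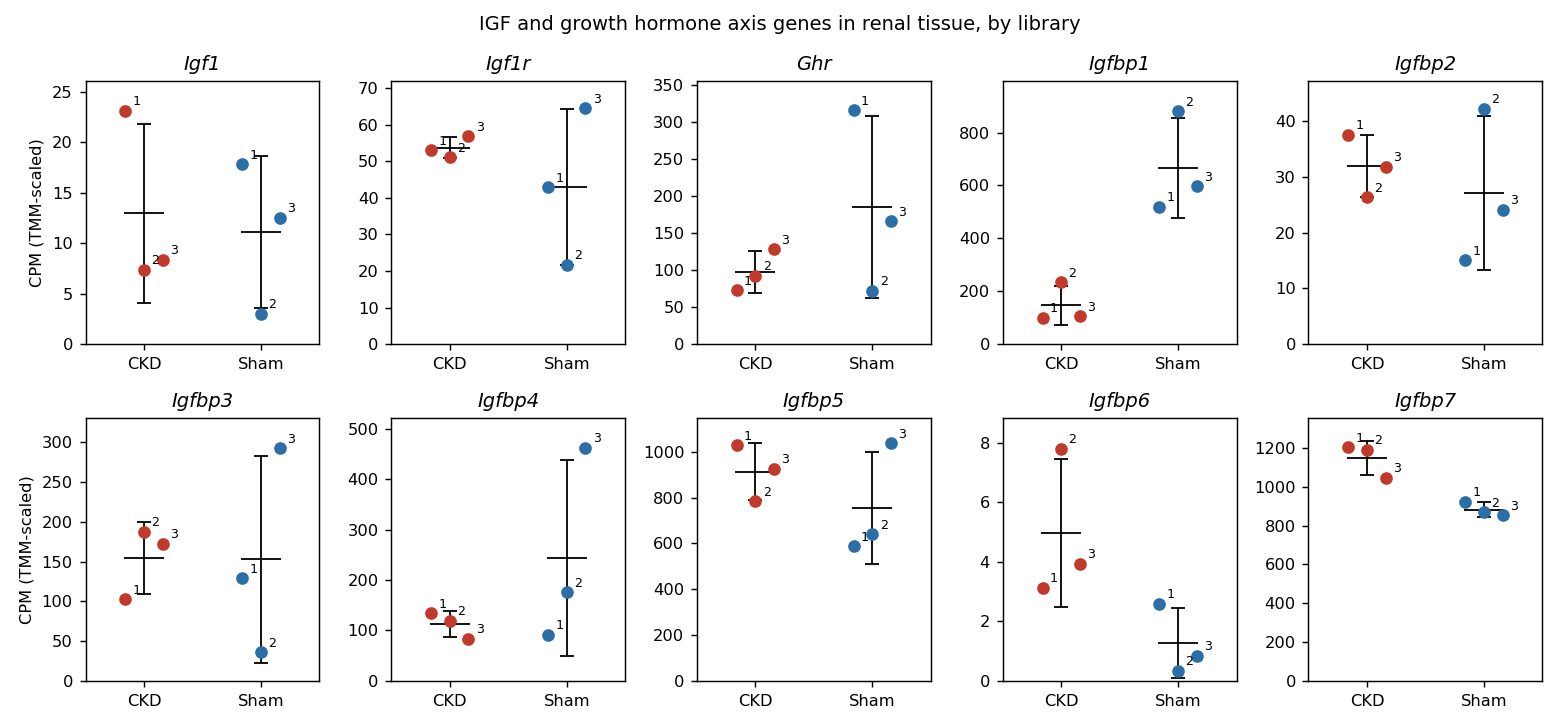
Level of each member in CPM (TMM-scaled, axes from 0) in the 3 CKD and 3 Sham libraries, with the library number beside each point and bars for the mean and SD. Igfbp1 lies between 101 and 233 CPM in CKD libraries, below all Sham libraries, Igfbp6 and Igfbp7 lie above them without passing the test, and the other 7 members overlap.

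Receptor and hormone. Ghr encodes the growth hormone receptor. It had 72.6, 92.1 and 128 CPM in CKD 1, 2 and 3, against 316, 72.3 and 166 CPM in Sham 1, 2 and 3. Sham 2 was as low as the lowest CKD library, so the groups overlapped, and Sham 1 was more than any other library. On the log2 scale CKD was 0.92 ± 0.50 (SE) below Sham, a fold change of -0.92 that did not pass (edgeR adjusted p = 0.308). It was -0.32 without Sham 1 and -1.34 without Sham 2, with edgeR adjusted p = 0.625 and 0.0906. Across the alternative settings and left-out libraries that p ran from 0.0906 to 0.625.

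Igf1 encodes the growth factor itself. It had 479, 148 and 163 counts in CKD 1, 2 and 3, and 267, 43 and 178 counts in Sham 1, 2 and 3. These came to 23.1, 7.35 and 8.35 CPM in CKD and to 17.8, 3.0 and 12.5 CPM in Sham. CKD 1 was the highest library and Sham 2 the lowest, and the others were mixed between the groups. Between the groups the log2 fold change was 0.22 ± 0.68 (SE) and did not pass (edgeR adjusted p = 0.875). It was -0.50 without CKD 1 and -0.28 without Sham 2, so its sign rested on single libraries. Macrophages are a known source of IGF1 in injured tissue. The 12 macrophage markers summed to 1384, 1682 and 687 CPM in CKD 1, 2 and 3 and to 186 to 459 CPM in Sham. Of them 4 were called higher (Cd163, Mrc1, C1qa and Itgam) and 0 lower, and none was at 0 in all libraries. Their part in the Igf1 values was not tested. In bulk tissue, fewer cells of a type and less RNA per cell cannot be told apart.

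Igf1r, the receptor tyrosine kinase for IGF1, had 53.0, 51.2 and 56.9 CPM in CKD libraries against 42.9, 21.7 and 64.5 CPM in Sham 1, 2 and 3. The CKD libraries lay close together within the wide Sham range, and the log2 fold change was 0.32 ± 0.36 (SE, edgeR adjusted p = 0.637), or -0.037 without Sham 2. Per kilobase of the authors' gene length, the level of Igf1r was 2.19 to 6.64 times that of Igf1 in CKD libraries and 2.30 to 6.91 times in Sham libraries.

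Igfbp1 and its neighbour Igfbp3. Igfbp1 encodes a binding protein whose transcription in liver is turned off by insulin and raised in fasting, through FoxO factors. It had 101, 233 and 106 CPM in CKD 1, 2 and 3, against 520.1, 881 and 597 CPM in Sham 1, 2 and 3. All CKD libraries lay below all Sham libraries, and the highest CKD library was less than the lowest Sham library by a wide margin. Means were 147 ± 75.1 CPM in CKD and 666 ± 189.8 CPM in Sham (SD, n = 3 each), so the CKD mean was 0.220 times that of Sham. Igfbp1 fell by 2.18 ± 0.43 on the log2 scale (SE, edgeR adjusted p = 0.0426), lower in 3 of 3 CKD libraries. As the groups did not overlap, leaving 1 library out could not turn the direction (log2 fold change -2.68 to -1.97). With library totals alone, which moved the median of all genes to 0.41, the log2 fold change was -1.76 (edgeR adjusted p = 0.0332). The call was lost without CKD 1, 2 or 3 (edgeR adjusted p = 0.187, 0.146 and 0.0974) and without Sham 2 or Sham 3 (0.0643 and 0.113). It was also lost in limma-voom (adjusted p = 0.0529) and in edgeR with the replicate number as a block (adjusted p = 0.0536). Over all alternatives that p ran from 8.16e-06 to 0.187.

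Collecting duct markers lay on the same side as Igfbp1. The 7 markers summed to 377 to 414 CPM in CKD, against 617, 2365 and 688 CPM in Sham 1, 2 and 3. All 6 tested had a negative fold change, 4 of them wholly below Sham, where 12.4% of all genes tested lay wholly below. But 0 were called higher or lower, and the vasopressin receptor gene Avpr2 was listed at 0 in every library. Thick ascending limb markers summed to 1264 to 3061 CPM in CKD and 1896 to 7864 CPM in Sham, with 0 of 5 called and none at 0. Proximal tubule markers (values above) overlapped, with 0 of 10 called. The side was not particular to the collecting duct. Distal convoluted tubule markers were negative in all 3 tested, each with overlap, and Pvalb of that list was at 0 in every library. Endothelium markers were negative in 6 of 9, 3 of them wholly below Sham. In both lists 0 were called. The part of these cell types in the Igfbp1 result was not tested.

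In the deposited coordinates Igfbp1 lies on chromosome 14 from 82047415 to 82052482 on the forward strand, and Igfbp3 from 82056347 to 82064083 on the reverse strand. The build behind these positions is uncertain, although Rnor_6.0 is the one in the submitters' processing notes. The 2 genes end towards each other with 3864 bases and 0 listed genes between them. Igfbp3 encodes the main carrier of IGFs in blood. It had 103, 188 and 172 CPM in CKD 1, 2 and 3, against 129, 36.2 and 293 CPM in Sham 1, 2 and 3. Sham held both the highest and the lowest library, 8.09 times apart. Its fold change was 0.015 on the log2 scale (SE 0.65, edgeR adjusted p = 0.991), and -0.48 without Sham 2 and 0.85 without Sham 3.

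The ratio of Igfbp1 to Igfbp3 within a library does not depend on scaling between libraries. On CPM per kilobase it was 1.58, 2.0 and 0.988 in CKD 1, 2 and 3, against 6.49, 39.1 and 3.28 in Sham 1, 2 and 3. Every CKD ratio was below every Sham ratio, and the Sham 2 ratio came with the lowest Igfbp3 and the highest Igfbp1 of all libraries.

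The promoters of the neighbours are shown because they flank the member that fell and one whose groups overlapped. That of Igf1, whose letters include the same motif as Igfbp1, and that of Igfbp7, the member with the highest mean, are set beside them. Each is the 250 bases before the start of the gene in RefSeq, on build GRCr8, read in the direction of the gene. Capitals mark CAAAACA (part of the insulin response element known from the Igfbp1 promoter, to which FoxO factors bind) and GGGCGG (the GC box), on either strand.
Igfbp1: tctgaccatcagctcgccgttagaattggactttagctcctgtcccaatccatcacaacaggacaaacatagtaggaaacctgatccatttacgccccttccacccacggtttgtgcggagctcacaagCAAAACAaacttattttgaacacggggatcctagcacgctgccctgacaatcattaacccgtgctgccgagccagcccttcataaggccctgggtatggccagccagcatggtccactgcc
Igfbp3: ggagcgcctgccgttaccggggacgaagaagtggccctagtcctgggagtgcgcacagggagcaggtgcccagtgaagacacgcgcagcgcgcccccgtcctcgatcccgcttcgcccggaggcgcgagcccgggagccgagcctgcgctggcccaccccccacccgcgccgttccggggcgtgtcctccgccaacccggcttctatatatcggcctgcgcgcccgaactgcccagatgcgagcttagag
Igf1: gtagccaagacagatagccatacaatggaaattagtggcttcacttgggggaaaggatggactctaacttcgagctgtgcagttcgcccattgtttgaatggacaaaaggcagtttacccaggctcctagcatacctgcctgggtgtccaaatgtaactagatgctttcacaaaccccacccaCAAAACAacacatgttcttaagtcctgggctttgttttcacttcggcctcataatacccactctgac
Igfbp7: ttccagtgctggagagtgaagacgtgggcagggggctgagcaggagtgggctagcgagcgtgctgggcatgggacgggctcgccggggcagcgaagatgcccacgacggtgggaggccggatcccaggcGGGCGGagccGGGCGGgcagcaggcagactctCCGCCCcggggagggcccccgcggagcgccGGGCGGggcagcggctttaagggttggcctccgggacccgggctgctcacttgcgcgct
These windows are chr14:86261027-86261276 (forward strand) for Igfbp1, chr14:86277945-86278194 (reverse strand) for Igfbp3, chr7:24172282-24172531 (forward strand) for Igf1 and chr14:31091486-31091735 (forward strand) for Igfbp7.

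RefSeq had a promoter for all 10 members. On both strands, CAAAACA was in 2 of them, Igfbp1 (121 to 115 bases before the start) and Igf1 (67 to 61), and in 5.46% of 33469 promoters. The letters GGGCGG were in Igf1r, Igfbp2 and Igfbp7, where they occurred 4 times, and in 30.5% of all promoters. TATAAA was in Igfbp4 (12.9% of all), and TTCNNNGAA, the palindrome that STAT5 binds, was in 0 members (7.67% of all). The marked motifs did not overlap each other. In base composition Igfbp1 (52.8% G or C) and Igf1 (46.8%) were lower than Igfbp3 (71.6%) and Igfbp7 (74.4%). A match is a description of letters and was not linked to the RNA levels here.

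Igfbp2 and its neighbour Igfbp5. This second pair lies on chromosome 9, again with the ends towards each other, 5444 bases apart and with 0 listed genes between. Igfbp5, which encodes a binding protein that also attaches to extracellular matrix, had 1029.8, 784 and 925 CPM in CKD 1, 2 and 3, against 589, 641 and 1037 CPM in Sham 1, 2 and 3. Sham 3 was the highest library, and the log2 fold change was 0.27 ± 0.34 (SE, edgeR adjusted p = 0.673). Igfbp2, whose protein binds IGF2 more tightly than IGF1, had 37.5, 26.3 and 31.8 CPM in CKD and 15.1, 42.2 and 24.1 CPM in Sham. The CKD libraries lay inside the Sham range, and the log2 fold change was 0.23 ± 0.37 (SE, edgeR adjusted p = 0.746), or -0.11 without Sham 1. The ratio of Igfbp2 to Igfbp5 in CPM per kilobase was 0.161, 0.149 and 0.152 in CKD 1, 2 and 3 and 0.113, 0.291 and 0.103 in Sham 1, 2 and 3, with the CKD values inside the Sham range.

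Igfbp4, Igfbp6 and Igfbp7. Igfbp4 encodes a binding protein that restrains IGF action until the protease pappalysin cleaves it. It had 134, 119 and 83.5 CPM in CKD 1, 2 and 3, against 91.9, 176 and 462 CPM in Sham 1, 2 and 3. Sham 1 lay inside the CKD range and Sham 3 far above all others. Its log2 fold change was -1.12 ± 0.55 (SE) without passing (edgeR adjusted p = 0.264). Without Sham 1, 2 or 3 it was -1.55, -1.34 and -0.33 (edgeR adjusted p = 0.0616, 0.217 and 0.627).

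Igfbp6 encodes a binding protein with a strong preference for IGF2. It was low, with 65, 157 and 77 counts in CKD 1, 2 and 3 and 39, 5 and 12 counts in Sham 1, 2 and 3. In CPM these were 3.14, 7.80 and 3.94 in CKD and 2.60, 0.349 and 0.845 in Sham. All CKD libraries were above all Sham libraries, though CKD 1 and Sham 1 were close. The log2 fold change was 1.96 ± 0.74 (SE, edgeR adjusted p = 0.164), and without Sham 1 it was 3.0 with edgeR adjusted p = 0.0411, against 0.0601 to 0.465 over the other alternatives. The 10 fibroblast and mural cell markers summed to 837 to 1193 CPM in CKD and 172 to 529.5 CPM in Sham, all 10 with a positive fold change and 1 (Col1a1) called, and none was at 0 in all libraries. Their part in the Igfbp6 values was not tested.

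Igfbp7 encodes a secreted protein of low affinity for IGFs, which binds to basement membrane and is used as a urinary marker of tubular stress. It had the highest mean of the members in CKD and Sham and was among Sham libraries the steadiest, with 1204, 1191 and 1045 CPM in CKD 1, 2 and 3, against 924, 867 and 853 CPM in Sham 1, 2 and 3. The groups did not overlap. Means were 1147 ± 88.3 CPM in CKD and 881 ± 37.4 CPM in Sham (SD, n = 3 each). The log2 fold change was 0.38 ± 0.29 (SE, edgeR adjusted p = 0.468), and 0.80 when libraries were scaled by their totals alone, which moved the median of all genes by a like amount, to 0.41. Polr2b overlaps Igfbp7 on the other strand and it is not known whether counting used strand, but Polr2b had 6097 counts over all libraries against 107718 for Igfbp7.

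**Figure D2:**
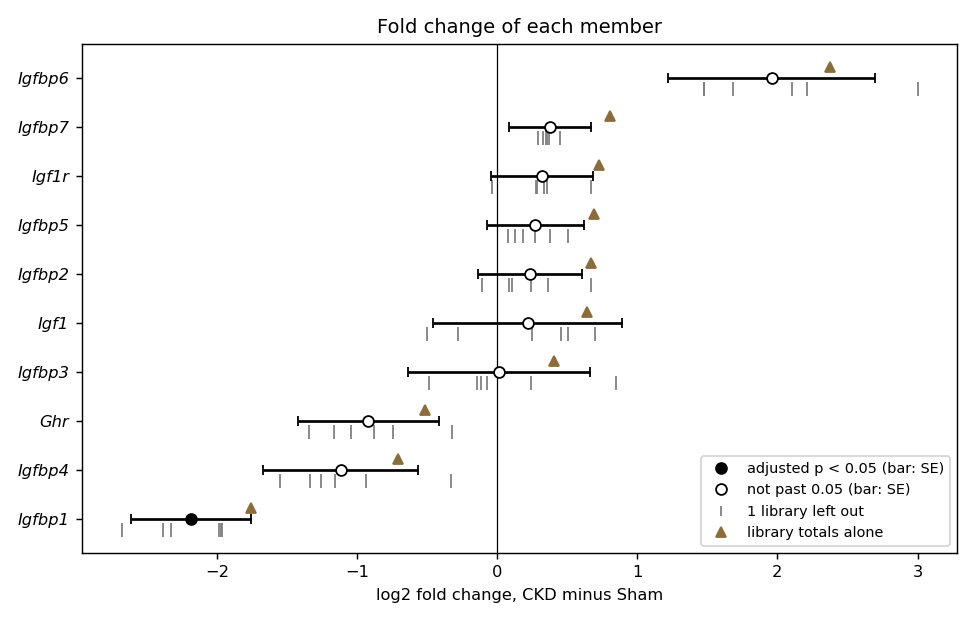
Log2 fold change (CKD minus Sham) of each member with its SE as the bar. Filled points passed an adjusted p of 0.05, grey ticks are the values with 1 library left out and triangles those with library totals alone. Igfbp1 at -2.18 is the 1 filled point, and Igf1, Igf1r, Igfbp2 and Igfbp3 have ticks on both sides of 0.

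Per kilobase of gene length the members spanned a wide range of levels. In CKD the order of mean CPM per kilobase was Igfbp7 (848 ± 65.3), Igfbp5 (157 ± 21.2), Igfbp1 (97.7 ± 49.97), Igfbp3 (63.8 ± 18.8), Igfbp4 (44.4 ± 10.2), Ghr (28.7 ± 8.28), Igfbp2 (24.3 ± 4.26), Igf1r (11.5 ± 0.620), Igfbp6 (5.13 ± 2.58) and Igf1 (2.89 ± 1.97; SD, n = 3). Igfbp7 and Igf1r overlapped no other member there, while each other neighbouring pair in that order overlapped over the libraries. In Sham, Igfbp1 (443 ± 126) stood second after Igfbp7 (652 ± 27.7) and ahead of Igfbp5 (129.9 ± 42.1), with no overlap among these 3. Igfbp4 (96.3 ± 76.8), Igfbp3 (63.2 ± 53.7) and Ghr (54.4 ± 36.2) had ranges over the Sham libraries that overlapped each other, so their order there is not fixed. Igfbp4 and Igfbp3 also overlapped Igfbp5, whose place after Igfbp1 is thus not fixed either. In Sham 3 Igfbp4 had 183, Igfbp5 178 and Igfbp3 121 CPM per kilobase, and the lowest Igfbp5 value in Sham was 101. Igf1 and Igfbp6 were the lowest members in both groups, and they overlapped in each.

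Per kilobase, Igfbp1 and Igfbp7 together made up most of the binding protein transcripts. On counts not divided by length Igfbp5 took more, from 24.3% to 39.4% over the 6 libraries, and in Sham 3 it exceeded Igfbp7 (31.7% against 26.1%). Igfbp1 was 5.33%, 11.7% and 6.21% of the summed CPM per kilobase of Igfbp1 to Igfbp7 in CKD 1, 2 and 3, against 28.1%, 40.3% and 26.0% in Sham 1, 2 and 3. Igfbp7 was 70.6%, 66.5% and 68.1% in CKD, against 55.3%, 44.1% and 41.2% in Sham. Neither share overlapped between the groups. Means were 7.76% ± 3.47 in CKD and 31.4% ± 7.73 in Sham for Igfbp1, and 68.4% ± 2.03 and 46.9% ± 7.46 for Igfbp7 (SD, n = 3 each). Shares add up to a whole, so a lower share of one gene raises the others. The share of Igfbp6 was also higher without overlap, at 0.409% in CKD and 0.100% in Sham on average, and the other 4 shares overlapped. The summed level itself was 1262, 1324 and 1135 CPM per kilobase in CKD and 1234, 1455 and 1529.9 CPM per kilobase in Sham, with the groups overlapping. No test was run on these shares, and without Sham 2 the difference in the Igfbp1 share was -19.3 percentage points in place of -23.7.

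**Figure D3:**
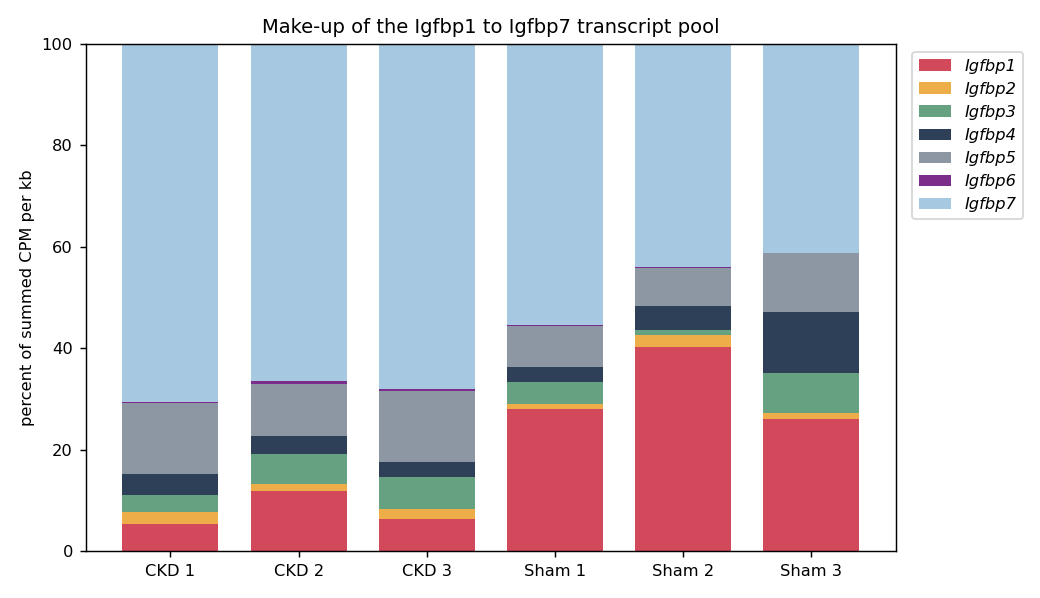
Percent of the summed CPM per kilobase of Igfbp1 to Igfbp7 that each gene took in each library, with CKD libraries left of Sham libraries. Igfbp1 takes 5.33% to 11.7% in CKD libraries and 26.0% to 40.3% in Sham libraries, and Igfbp7 takes the largest part in all 6 libraries.

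Sham libraries were the more variable for most members. The coefficient of variation of CPM was larger in Sham for 7 of the 10 members and larger in CKD for 3 (Igf1, Igfbp1 and Igfbp7). Over all genes 80.1% had the larger value in Sham. For Igfbp3 it was 29.4% in CKD and 85.1% in Sham, and for Igf1r 5.41% in CKD and 49.7% in Sham. Sham 2 was the lowest Sham library for 5 members (Igf1, Igf1r, Ghr, Igfbp3 and Igfbp6) and the highest for 2 (Igfbp1 and Igfbp2).

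Other genes of the axis. Of 55 further genes of the pathway described here, 54 had a row and 48 were tested. Of these 48 genes 0 were called higher and 0 lower by edgeR, against the 2.67% and 1.15% over all genes. At an unadjusted p under 0.05 in edgeR there were 2 members and 4 of these pathway genes (Prlr, Htra1, Stat5b and Foxo3), where 23.8% of all genes tested lay under it. The median log2 fold change of the 48 tested pathway genes was 0.13. In DESeq2 0 were higher and 3 were lower (Insrr, Prlr and Foxo3), and in limma-voom 0 were called. Of all 15371 genes tested DESeq2 called more than edgeR, 1379 higher and 1118 lower against 411 and 176.

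Among ligands and carriers, Igf2 stood at 0.482, 0.348 and 1.49 CPM in CKD and 1.13, 4.89 and 1.97 CPM in Sham, and the log2 difference of -1.78 ± 0.77 (SE) did not pass (edgeR adjusted p = 0.214). It was -1.03 without Sham 2 and -2.65 without CKD 3. Igfals encodes the acid-labile subunit that joins IGF and IGFBP3 in the large complex of blood. It had 21.8, 13.8 and 16.9 CPM in CKD and 16.1, 7.41 and 15.8 CPM in Sham. Its log2 fold change was 0.42, or 0.093 without Sham 2. Growth hormone (Gh1), its releasing hormone (Ghrh), insulin (Ins2) and prolactin (Prl) were too low to be tested.

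Of 4 other receptors 0 passed. Igf2r, which takes up IGF2 and carries lysosomal enzymes, had a log2 fold change of 0.56 ± 0.39. That of Insr, the insulin receptor, was 0.17 ± 0.22. Without Sham 2 they were 0.19 and 0.028. Prlr and Insrr were named after their values were seen. Prlr, the prolactin receptor, a close relative of the growth hormone receptor, had 22.05, 19.2 and 45.8 CPM in CKD against 299, 88.7 and 71.4 CPM in Sham. Its groups did not overlap, but it missed the threshold (log2 fold change -2.40 ± 0.62, edgeR adjusted p = 0.0717). Without Sham 1, 2 or 3 the fold change was -1.51, -2.72 and -2.79 (edgeR adjusted p = 0.0592, 0.0778 and 0.115). Insrr, the insulin receptor-related receptor, known as a sensor of alkali, had 249 CPM in Sham 2 against 8.13 and 57.6 CPM in Sham 1 and 3, and 17.2 to 28.7 CPM in CKD.

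Of 7 genes for binding protein proteases and their inhibitors 0 passed. Pappa and Pappa2, the pappalysins, which cleave IGF binding proteins, had log2 fold changes of -0.72 ± 0.50 and -0.97 ± 0.77. Without Sham 2 they were -0.28 and -0.80. That of Stc1, a stanniocalcin of the family that inhibits pappalysins, was 0.73 ± 0.52. The stanniocalcin Stc2 had 3.18, 1.99 and 7.53 CPM in CKD and 19.5, 0.140 and 0.282 CPM in Sham. Its log2 fold change of -0.65 ± 1.45 rested on Sham 1 and was 4.25 without it (edgeR adjusted p = 0.0354).

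Growth hormone receptor signalling and feedback held 10 tested genes, 0 of which passed and 7 of which had a positive fold change. Stat5b, the transcription factor that carries the growth hormone signal, had 48.0, 50.5 and 52.7 CPM in CKD against 37.9, 31.8 and 37.1 CPM in Sham (log2 fold change 0.50 ± 0.18, edgeR adjusted p = 0.144). The groups did not overlap. With library totals alone, which moved the median of all genes to 0.41, the log2 fold change of Stat5b was 0.92 (edgeR adjusted p = 0.024). That p was the lowest of 0.024 to 0.407 over the alternatives. Jak2, the receptor's kinase, had a log2 fold change of 0.31 ± 0.26. Cish, a STAT5 target that damps the receptor, had 20.0, 27.5 and 15.5 CPM in CKD and 3.93, 14.95 and 13.5 CPM in Sham. Its lowest CKD library was just above the highest Sham library (log2 fold change 0.96 ± 0.49, edgeR adjusted p = 0.275). Socs2, the main brake on growth hormone signalling in mouse, lay at 4.22 to 5.22 CPM in CKD and 3.59 to 7.48 CPM in Sham (log2 fold change -0.13, or 0.30 with library totals alone and 0.24 without Sham 2).

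In signalling from the IGF1 receptor, 24 of the genes described here were tested, and 0 were called higher or lower by edgeR. At an unadjusted p under 0.05 there was 1, Foxo3. Irs1 and Irs2, the docking proteins of the receptor, had log2 fold changes of -0.33 ± 0.36 and -0.0052 ± 0.22. They were 0.10 and 0.42 with library totals alone, where the median of all genes was 0.41. Foxo1 and Foxo3, FoxO factors that AKT keeps out of the nucleus, were named after their values were seen. Foxo3 had 67.3, 55.6 and 66.5 CPM in CKD against 165, 87.0 and 145 CPM in Sham, without overlap (log2 fold change -1.07 ± 0.27, edgeR adjusted p = 0.0703). Foxo1 had 33.0, 32.9 and 35.4 CPM in CKD against 66.9, 33.9 and 51.2 CPM in Sham, where CKD 3 exceeded Sham 2 (log2 fold change -0.58 ± 0.27, edgeR adjusted p = 0.229).

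**Figure D4:**
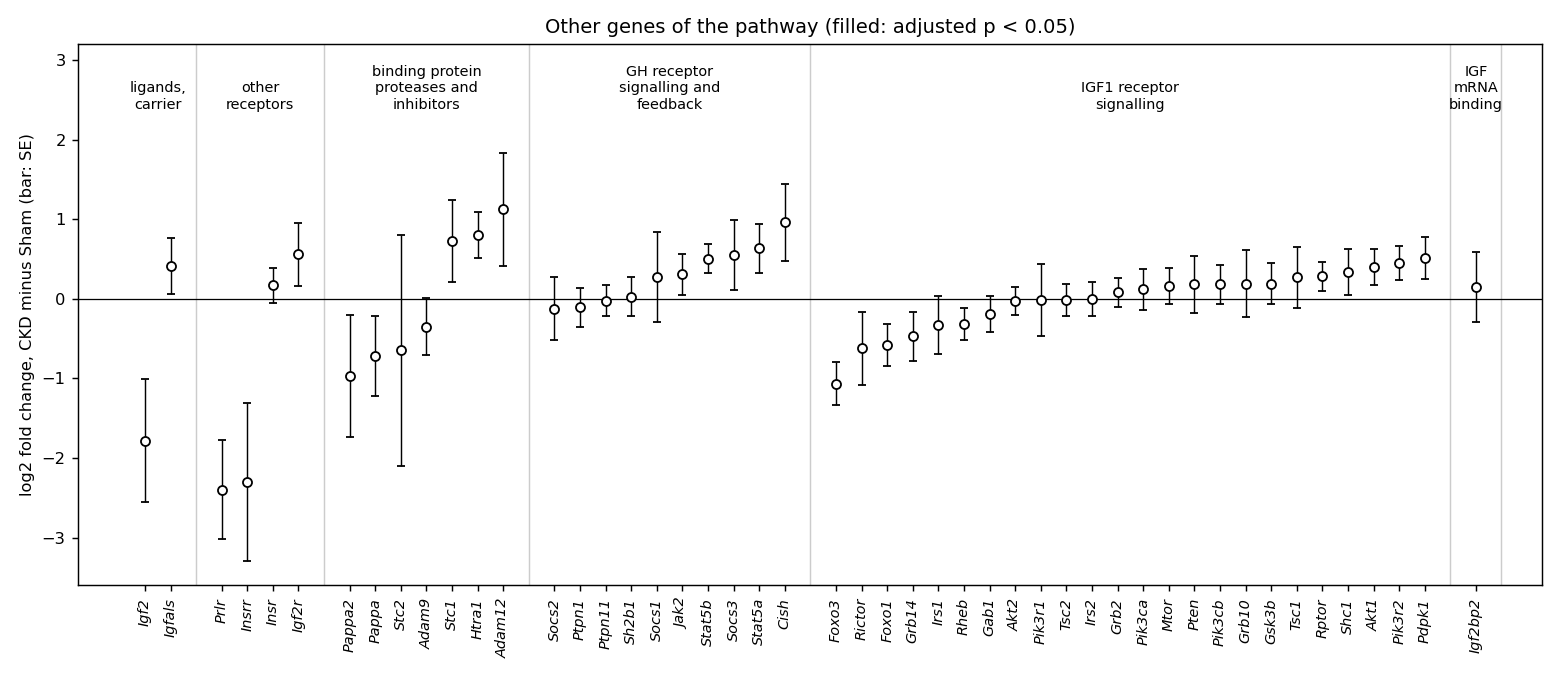
Log2 fold change (CKD minus Sham) with its SE for the 48 other pathway genes described here that were tested, grouped by role and ordered within each role. A filled point would mark an adjusted p under 0.05, and none is filled. Prlr at -2.40 and Foxo3 at -1.07 came closest.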

How the data were processed

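RNA was extracted with TRIzol, per the labels' protocols. The deposited table holds raw, unnormalized counts, 1 column for each library. The submitters' processing notes list fastp 0.20.1, HISAT2 2.1.0, HTSeq 0.11.2 and the build Rnor_6.0. Whether counting used strand is not stated. The authors' gene lengths, of unstated origin, served as the deposited values for comparing levels between genes.

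Genes were kept by filterByExpr (minimum count 10, minimum total 15), scaled by TMM and fitted with edgeR 4.0.16 (glmQLFit, robust, group as its only term; R 4.3.3), with Benjamini-Hochberg adjustment over 15371 genes. CPM values were computed from the deposited counts. Log2 fold changes are CKD minus Sham, with SE. The model was tested on simulated data, where it called few of the smaller changes. The simulation gave each gene the same underlying spread in both groups. In these data 80.1% of genes had the larger coefficient of variation in Sham, so the simulation does not match them there. A gene that did not pass is not shown to be alike in both groups. Alternatives were RLE or no composition factors, 2 other filters, DESeq2 1.42.0, limma-voom (limma 3.58.1), a replicate block, removal of mitochondrial genes and each library left out. Leaving libraries out of the shares was added after seeing the data. Within groups, pairs of libraries differed by 25.8 to 269.7 in chi-square over its degrees of freedom, so none was a copy.

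The members and lists were chosen with earlier results of these data known. By rule, the text names all members, every other reported pathway gene past the threshold (0 here) and Igf2, Igf2r, Igfals, Insr, Irs1, Irs2, Jak2, Stat5b, Socs2, Cish, Pappa, Pappa2, Stc1 and Stc2 whatever their values. Foxo1, Foxo3, Prlr, Insrr and the genes named with another setting's or an unadjusted count fall outside it. Marker lists that touched no result are not described. Irs4, one of the 55 listed, had no row under that symbol and so was not analysed here. Apart from those 55, 1 listed pathway gene is not reported here and enters none of the pathway counts.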

Additional observations from a re-analysis of the deposited data

How the results depend on the processing

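Igfbp1 was negative in all 14 alternatives and was called in 7 of them. The count of lower members was 0 in limma-voom and with a replicate block (adjusted p = 0.0529 and 0.0536), and 0 to 1 with a library left out. That of higher members was 0 to 1 with a library left out. Other pathway genes, 0 in either direction by edgeR, came to 4 higher with library totals alone (Htra1, Stat5b, Pik3r2 and Rptor), 0 in limma-voom and with the block, and 3 lower in DESeq2 (Insrr, Prlr and Foxo3). With a library left out they ran from 0 to 2 higher and 0 to 2 lower. Over all genes, 411 higher and 176 lower became 2047 higher with library totals alone, 1379 and 1118 in DESeq2, 98 and 66 in limma-voom, and 4 and 6 with the block, and ran from 0 to 789 higher and 0 to 922 lower with a library left out. Library totals alone moved the median of all genes to 0.41. Deviations of same-numbered libraries had correlations of -0.21, 0.0045 and -0.16, and those of differently numbered libraries ran from -0.092 to 0.20. With 3 libraries per group these values cannot tell whether the numbers pair the samples.

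Signs that turned were those of values near 0 or resting on 1 library. Igfbp3 was -0.023 with RLE and in DESeq2 and -0.019 without mitochondrial genes. Irs1 was 0.10, Irs2 0.42 and Socs2 0.30 with library totals alone, Irs2 was 0.017 in limma-voom and with the block, and Stc2 was 1.79 in limma-voom and 1.95 with the block. With a library left out the ranges were -0.50 to 0.70 (Igf1), -0.037 to 0.67 (Igf1r), -0.11 to 0.67 (Igfbp2), -0.48 to 0.85 (Igfbp3), -0.62 to 0.12 (Irs1), -0.17 to 0.15 (Irs2), -0.38 to 0.24 (Socs2) and -1.36 to 4.25 (Stc2). The differences in binding protein shares were 9.12 (Igfbp5), 0.146 (Igfbp6) and 12.5 (Igfbp7) percentage points on counts without division by length, in place of 3.60, 0.309 and 21.5, and that of Igfbp3 ran from -0.951 to 2.49 with a library left out. The cause was not tested.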
